A study of Mus musculus with 20 samples.

Results

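The nuclear genes for the subunits of oxidative phosphorylation were followed through AGO2-RIP-seq and mRNA-seq of the mouse hippocampus. They were taken by symbol: Nduf genes for complex I, Sdha to Sdhd for complex II, Uqcr genes for complex III, Cox4 to Cox8 genes for complex IV and Atp5 genes for complex V. Of 24926 gene symbols 86 met this rule, of which 38 belong to complex I, 4 to complex II, 8 to complex III, 18 to complex IV and 18 to complex V. The rule left out 8 Ndufaf assembly factors and 1 pseudogene, and 6 symbols that matched by letters but name no subunit, such as Sdhaf1, were set apart. The symbol Ndufa4 was kept with complex I, although its protein is now counted as a subunit of complex IV.

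Oxidative phosphorylation is the chain of protein complexes in the inner mitochondrial membrane that passes electrons from NADH and succinate to oxygen and uses the proton gradient so formed to make ATP. Complex I takes electrons from NADH, complex II from succinate, complex III hands them to cytochrome c, complex IV to oxygen, and complex V is the ATP synthase. Neurons cover most of their large energy demand in this way. Most subunits are small proteins encoded in the nucleus by short, abundant mRNAs, whereas several core subunits are encoded in the mitochondrion.

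All mice were adult male C57BL/6 mice, and the transgenes were carried by AAV5 vectors and driven by a human synapsin promoter, which is active in neurons. In the RIP-seq, RNA bound to a GFP-AGO2 fusion protein was precipitated with GFP antibodies from mice whose GFP-AGO2 vector also carried a sponge against miR-124 (miR124sp), miR-125 (miR125sp) or miR-292 (miR292sp), or from sham-injected mice that carry no GFP-AGO2, with 2 libraries per group and a pooled lysate of 2 hippocampi per library. A sponge is a transcript with many binding sites for a miRNA, and miR292sp served as the control sponge. The labels name the cells as hippocampal neurons, although the tissue was not sorted. In the mRNA-seq, whole hippocampus came from 3 mice with GFP-miR124sp and 3 mice with GFP alone in one experiment, and from 3 mice with GFP-miR125sp and 3 other mice with GFP alone in another, all without GFP-AGO2. Whole tissue holds transduced and other cells, so fewer cells of a type and less RNA per cell cannot be told apart.

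The RIP libraries held 2417942 to 5072501 reads in 3′UTRs and the mRNA libraries 6950522 to 27833176 reads in transcripts. In the RIP libraries the summed level of 10 astrocyte markers was 43687 to 44106 CPM (counts divided by the library total, in the usual CPM scale) in miR124sp, 34762 to 37198 in miR125sp, 15016 to 15757 in miR292sp and 62730 to 63091 in sham. The 16 neuronal markers summed to 9540 to 9809 in miR124sp, 9545 to 10322 in miR125sp, 9066 to 9313 in miR292sp and 9434 to 10218 in sham. These sums are shares of the library totals. The comparison with sham below is scaled to Gapdh and its neighbours instead. On that scale 11 of 14 neuronal marker 3′UTRs were higher in miR292sp than in sham and 0 lower (median log2 ratio 1.36). Of 9 astrocyte marker 3′UTRs 2 were higher and 2 lower (median -0.36). Among all 3′UTRs 59.4% were higher and 0.585% lower (edgeR, adjusted p below 0.05). In the whole tissue, the 10 astrocyte markers summed to 2710 to 2949 CPM in miR124sp mice and 3456 to 4062 in their GFP mice, the 10 microglial markers, with Itgam at 0, to 710 to 739 in miR124sp mice and 807 to 901 in GFP mice, and the 5 choroid plexus markers to 60.2 to 2279 in miR124sp mice and 118 to 4131 in GFP mice. Neuronal markers summed to 6556 to 7318 in miR124sp mice and 6229 to 7010 in their GFP mice. In miR125sp mice and their GFP mice, astrocyte markers summed to 2537 to 2636 and 2839 to 3104 CPM, and microglial markers to 656 to 676 and 730 to 757. Neuronal markers there summed to 7451 to 7806 and 6901 to 7153, and choroid plexus markers to 61.9 to 1649 and 90.4 to 1368. The part of these differences in the results below was not tested.

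A 3′UTR entered the RIP tests with at least 10 counts in every library. This left 68 3′UTRs of 65 of the 86 genes, which were short, with a median length of 157.5 bases (range 33 to 4252), against 1312 bases for the 8203 3′UTRs tested in all. In the mRNA-seq all 86 genes were listed and 75 passed the filter on low counts. The 76 genes with 1 listed transcript had a median of 25298.5 counts over the 12 mice, against 16 counts for the 10 genes with several listed transcripts, and Ndufs1 and Ndufs8, both with several, were at 0 in every mouse. Over all symbols the medians were 559.5 counts with 1 transcript and 32 with several, so low values of genes with several transcripts were not read as low expression. Ndufs5 has 1 listed transcript and was also at 0 in every mouse, although its 3′UTR held 611 counts over the RIP libraries. The pseudogene left out by the symbol rule, Ndufs5-ps, held 19543 counts over the 12 mice. Whether reads of Ndufs5 were counted on this pseudogene was not tested, so its 0 was not read as a lack of expression.

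The first comparison asked which subunit mRNAs were bound by AGO2, as the ratio of miR292sp to sham reads after scaling to Gapdh and the 50 genes on each side of it in the ranking by ratio, the study's own reference. Of the 68 subunit 3′UTRs, 18 were enriched and 0 were depleted, against 59.4% higher and 0.585% lower among all 3′UTRs (edgeR quasi-likelihood test, adjusted p below 0.05). The median enrichment of the subunits was 1.43-fold, against 2.39-fold over all 3′UTRs. On the log2 scale the medians were 0.55 for complex I, 0.84 for complex II, 0.58 for complex III, 0.52 for complex IV and 0.42 for complex V, against 1.26 for all. All 5 complexes therefore lay below the median of the transcriptome, and the enriched members numbered 7 of 32 3′UTRs in complex I, 2 of 4 in complex II, 2 of 8 in complex III, 4 of 9 in complex IV and 3 of 15 in complex V. Only Atp5g1 passed the 4-fold enrichment that the study used for a miRNA target, against 27.2% of all 3′UTRs, and 10 of the 68 lay below 1.

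**Figure D1:**
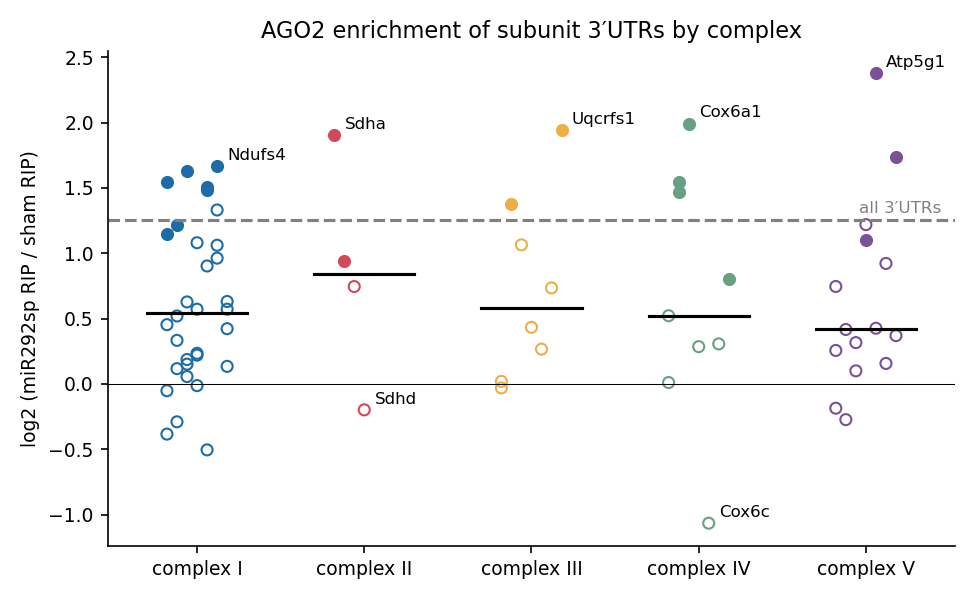
Each point is the 3′UTR of one subunit gene, with its log2 ratio of miR292sp to sham RIP reads on the vertical axis, by complex. Filled points passed the edgeR test, open points did not, short black lines are medians per complex, and the dashed line is the median of 1.26 over all 8203 3′UTRs. The medians of the complexes sit between 0.42 and 0.84, below the dashed line.

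The most enriched subunit was Atp5g1, one of the genes for subunit c, which forms the rotating ring of the ATP synthase. Its 3′UTR, of 4252 bases on chr11:95930166-95934417 (NCBIM37, minus strand), was the longest among the subunits. Its normalised read count was 441 and 364 in miR292sp, against 75.6 and 79.2 in sham, a log2 enrichment of 2.38 ± 0.36 (SE; adjusted p = 1.58e-05, edgeR). Both miR292sp libraries lay far above both sham libraries. Its relatives Atp5g2 and Atp5g3, which encode the same mature protein, have 3′UTRs of 146 bases each, and their log2 ratios of 0.92 ± 0.57 and 0.37 did not pass the test (adjusted p = 0.175 and 0.424, edgeR).

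Cox6a1, the widely expressed isoform of subunit 6a of cytochrome c oxidase, had the highest counts of all subunits in the RIP. They were 2494 and 2376 in miR292sp, against 561 and 664 in sham (log2 enrichment 1.99 ± 0.21, adjusted p = 3.30e-07, edgeR). Cox8a, another small subunit of complex IV, had 1386 and 1381 in miR292sp, against 445 and 501 in sham (1.55 ± 0.24, adjusted p = 2.14e-05). Replicates of both genes lay close together and the groups did not overlap. In contrast, Cox4i1, the large regulatory subunit of the same complex, had 263 and 349 in miR292sp, against 276 and 333 in sham, and the groups overlapped (0.01 ± 0.35, adjusted p = 0.984).

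In complex II the catalytic flavoprotein subunit Sdha had 842 and 796 in miR292sp, against 259 and 179 in sham (log2 enrichment 1.90 ± 0.30, adjusted p = 2.81e-05, edgeR). The iron-sulfur subunit Sdhb was enriched less, with 186 and 225 in miR292sp, against 90.1 and 125 in sham (0.94 ± 0.37, adjusted p = 0.0382). The membrane anchors Sdhc and Sdhd did not pass the test, with log2 ratios of 0.74 ± 0.40 and -0.20 ± 0.49. The groups overlapped for Sdhd and did not overlap for the other subunits of this complex.

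In complex III the Rieske iron-sulfur protein Uqcrfs1 had 467 and 569 in miR292sp, against 69.5 and 202 in sham (1.94 ± 0.40, adjusted p = 0.000448, edgeR). The hinge protein Uqcrh had 326 and 321 in miR292sp, against 322 and 339 in sham (-0.03 ± 0.28, adjusted p = 0.936). Uqcr10, a small subunit, was as even, with 436 and 471 in miR292sp, against 435 and 461 in sham. Both are among the subunits with many reads. On this scale an even value means a ratio like that of Gapdh and its neighbours. With TMM scaling, described below, the log2 ratio of Uqcr10 was -1.35 (adjusted p = 0.000569, edgeR).

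In complex I the accessory subunit Ndufs4, a known disease gene in Leigh syndrome, led with 767 and 733 in miR292sp, against 274 and 198 in sham (1.67 ± 0.26, adjusted p = 2.23e-05, edgeR). Ndufa12, an accessory subunit of the same arm, had 240 and 300 in miR292sp, against 58.0 and 117 in sham (1.63 ± 0.41, adjusted p = 0.00236). The core subunit Ndufs3 was lowest, with 86.5 and 89.4 in miR292sp, against 82.4 and 168 in sham (-0.51 ± 0.44, adjusted p = 0.343). In complex V Atp5o, the stalk subunit also called OSCP, was enriched by 1.73 ± 0.48 (adjusted p = 0.00465), while the catalytic beta subunit Atp5b had 729 and 950 in miR292sp, against 564 and 695 in sham (0.42 ± 0.27, adjusted p = 0.196). The lowest value in complex V was that of Atp5j2, subunit f, at -0.27 ± 0.40.

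**Figure D2:**
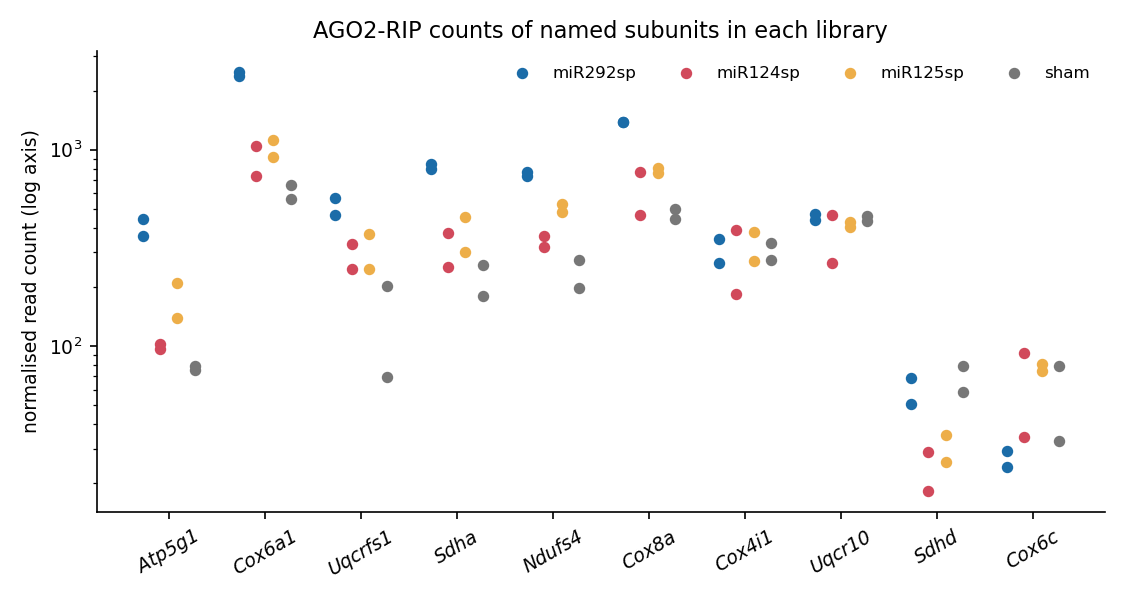
Each point is the normalised read count of one RIP library (log axis) for 10 named subunits, with miR292sp, miR124sp, miR125sp and sham side by side and 2 libraries per group. For Atp5g1, Cox6a1, Sdha, Ndufs4 and Cox8a both miR292sp libraries lie above all others, whereas for Cox4i1 and Uqcr10 the groups overlap.

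AGO2 enrichment followed 3′UTR length over the whole transcriptome, so the subunits were also set beside 3′UTRs of their own length. Among 3′UTRs under 200 bases the median log2 enrichment was 0.43 for 42 subunit 3′UTRs and 0.54 for all 735. From 200 to under 500 bases it was 0.42 for 13 subunit 3′UTRs and 0.93 for all 1095, from 500 to under 1000 bases 0.80 for 9 and 1.26 for all 1487, and at 1000 bases or more 0.98 for 4 and 1.45 for all 4886. Subunit medians were thus below the median of their class in each of the 4 classes, least so among the shortest 3′UTRs, which hold most subunits. Across the 68 subunit 3′UTRs the enrichment correlated with log length at Pearson r = 0.30 and Spearman rho = 0.29, given as a description because the points share libraries.

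The call of enrichment also depended on the scaling. With TMM scaling, which centres on the bulk of the 3′UTRs, the median of all moved to -0.11 and that of the subunits to -0.83, and 2 subunit 3′UTRs were higher and 21 lower, against 21.6% higher and 19.1% lower in all. Of the 18 enriched 3′UTRs 5 changed sign, among them those of Sdhb (-0.42), Cox7a2l (-0.56) and Ndufa11 (-0.12), and 2 were still called higher. With offsets that follow 3′UTR length, 44 of 68 subunit 3′UTRs were higher, against 66.6% of all, with medians of 1.14 for the subunits and 1.40 for all. The subunit median lay below that of all under each of these scalings, least so with the length offsets. There the share of subunits called was near that of all 3′UTRs. Their direction against sham was not the same under each scaling.

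Among the other genes of mitochondrial energy metabolism, 16 of 26 tested 3′UTRs of assembly factors of the complexes were enriched, beside 59.4% of all 3′UTRs, with a median of 1.29. Of 14 3′UTRs for core subunits and electron carriers outside the symbol rule 7 were enriched. They were led by Coq5 (1.86) and Coq3 (1.67), enzymes of coenzyme Q synthesis, whereas Cycs, cytochrome c, stood at 0.09. The pyruvate dehydrogenase and citric acid cycle list had 6 of 11 enriched with a median of 0.64, and glycolysis 4 of 11 with a median of 0.57, near the value of the subunits. Of the regulators of mitochondrial gene expression 6 of 11 were enriched (median 0.95), and of the mitochondrial carriers and porins 9 of 13 (median 0.92). In these 6 lists 0 3′UTRs were lower.

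miR-125 is an abundant brain miRNA, and its seed, bases 2 to 8, was searched in the 54 subunit 3′UTRs whose length in the file matched the annotation. The mature sequences are shown because both forms share this seed, which is in capitals (RefSeq, GRCm38.p6).
miR-125a-5p: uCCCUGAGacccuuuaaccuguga
miR-125b-5p: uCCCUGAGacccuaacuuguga
The complement CTCAGGG, read on the mRNA strand only, was found in 6 of these 54 3′UTRs, against 16.5% of 7445 3′UTRs of all lengths. Under 200 bases it was found in 2 of 31 subunit 3′UTRs, against 1.31% of all, from 200 to under 500 bases in 1 of 12, against 4.49%, from 500 to under 1000 bases in 2 of 8, against 10.3%, and at 1000 bases or more in 1 of 3, against 22.3%. The sites of the most enriched of these genes are shown with the match in capitals, in the NCBIM37 build: Uqcrfs1 on chr13:30632573-30632599 (minus strand), Ndufs4 on chr13:115078606-115078634 (minus strand), and Ndufa11 on chr17:56862332-56862360 and chr17:56863360-56863388 (plus strand).
Uqcrfs1: acacgtggaCTCAGGGcctaggtttct
Ndufs4: actaaaccactCTCAGGGaaattcttttg
Ndufa11, first site: tcacgtgccagCTCAGGGttaccatgagg
Ndufa11, second site: cctccatctacCTCAGGGccaaggctcaa
The others were Atp5g2, Cox7a2l and Ndufv3. The log2 enrichment in miR292sp over sham had a median of 1.15 over the 6 genes, beside 1.26 over all 3′UTRs. Of the 6 genes 4 passed the test, beside 59.4% of all 3′UTRs. For let-7, whose complement is CTACCTC, 2 of 54 3′UTRs held a match, those of Cox7b and Ndufa11, against 11.5% of all. The second site of Ndufa11 overlaps its let-7 match. A match is a description of letters and not a bound site.

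The sponges were then compared with the control sponge, to see whether AGO2 binding of subunits was lower when a miRNA was sequestered. Both comparisons share the miR292sp libraries. With miR124sp, 1 of 68 subunit 3′UTRs was higher, against 5.10% of all, and 0 were lower, against 3.46% (edgeR, TMM scaling, adjusted p below 0.05). The median log2 ratio was 0.58 for the subunits and 0.04 for all 3′UTRs, and at an unadjusted p below 0.05 19 were higher and 2 lower, beside 1186 higher and 965 lower of all 8203. Astrocyte markers, which summed to more in the miR124sp and miR125sp libraries than in the miR292sp libraries, move with these comparisons. So do the 8 endothelial and mural markers, at 261 to 299 CPM in miR124sp and 228 to 287 in miR125sp, against 128 to 162 in miR292sp, and the 5 choroid plexus markers, at 85.9 to 119 CPM in miR124sp and 355 to 449 in miR125sp, against 56.9 to 66.6 in miR292sp. Their part was not tested. With miR125sp, 0 were higher, against 1.18% of all, and 0 were lower, against 0.232%, with a median of 0.36 for the subunits and 0.03 for all. There 11 were higher and 1 lower at an unadjusted p below 0.05, beside 823 higher and 583 lower of all. DESeq2 called 1 higher, beside 196 higher and 178 lower of all 3′UTRs.

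The called gene was Cox6c, a small subunit of complex IV. Its normalised read count, scaled to Gapdh and its neighbours, was 92.0 and 34.2 in miR124sp, against 29.2 and 24.2 in miR292sp, with raw counts of 109 and 32 against 23 and 20. The log2 ratio was 2.28 ± 0.60 (adjusted p = 0.0273, edgeR, TMM scaling), and without the first of the miR124sp libraries, replicate 3, it was 1.28 (adjusted p = 0.249). Leaving out either miR292sp library also ended the call, with adjusted p = 0.172 and 0.191. With miR125sp the counts of Cox6c were 80.7 and 74.8, both above both miR292sp libraries, with a log2 ratio of 2.32 ± 0.60 (adjusted p = 0.0644). Both sponge groups are here set against the same low control values.

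Short 3′UTRs as a whole stood higher in the sponge libraries: the median log2 ratio of miR124sp to miR292sp was 0.67 for 42 subunit 3′UTRs under 200 bases and 0.49 for all 735, and of miR125sp to miR292sp 0.58 and 0.39. At 1000 bases or more the medians of all 4886 were -0.05 and -0.04. With the scaling to Gapdh and its neighbours the subunit medians became -0.40 for miR124sp and -0.42 for miR125sp, against -0.97 and -0.75 for all 3′UTRs. With miR124sp 0 subunit 3′UTRs were then higher and 10 lower, beside 17 higher and 4105 lower of all 8203, and with miR125sp 1 was higher and 5 lower, beside 18 higher and 3132 lower of all. The direction of the sponge effect on subunit binding was therefore set by the scaling, and under both scalings the subunit median lay above that of all 3′UTRs.

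Against sham, the medians of the subunits were lower with both sponges than with the control sponge on the scale of Gapdh and its neighbours, and these comparisons share the sham libraries. With TMM scaling the order turned, with subunit medians of -0.21 for miR124sp and -0.28 for miR125sp, against -0.83 for miR292sp. In miR124sp 0 of 68 were higher, against 19.3% of all, and 1 was lower, against 0.232%, with a median of 0.14 for the subunits and 0.36 for all. At an unadjusted p below 0.05, 2 were higher and 1 lower, beside 2359 higher and 113 lower of all. The lower one was Sdhd, with 28.7 and 18.2 in miR124sp, against 79.4 and 58.0 in sham (-1.54 ± 0.51, adjusted p = 0.0426, edgeR). Every miR124sp value lay below every sham value, although leaving out either miR124sp library or sham replicate 7 ended the call (adjusted p = 0.0659 to 0.238). The 2 miR124sp libraries also differed, since subunits took 0.247% of all counts in replicate 3 and 0.394% in replicate 4, and without one or the other the subunit median was 0.51 or -0.33.

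In miR125sp 5 of 68 were higher than sham, against 30.1% of all, and 0 were lower, against 0.317%, with a median of 0.29 for the subunits and 0.55 for all. These were Uqcrfs1 (1.20 ± 0.40, adjusted p = 0.0291, edgeR), Atp5g1 (1.17 ± 0.35, adjusted p = 0.0159), Ndufs4 (1.10 ± 0.25, adjusted p = 0.00279), Cox6a1 (0.74 ± 0.21, adjusted p = 0.0114) and Cox8a (0.73 ± 0.24, adjusted p = 0.0252). All 5 were also among the 8 most enriched with the control sponge. Without sham replicate 7 there were 3 higher calls and without miR125sp replicate 2 there was 1. With TMM scaling 0 were higher and 1 lower, with a median of -0.28, beside 1037 higher and 314 lower of all 3′UTRs. With DESeq2 0 were higher and 3 lower, beside 1129 higher and 479 lower of all. For Atp5g1 the normalised read count was 97.1 and 103 in miR124sp and 138 and 210 in miR125sp, against 441 and 364 in miR292sp, so both sponges lay below the control sponge on this scale, while the log2 ratios to miR292sp with TMM scaling, -0.999 ± 0.35 and -0.42 ± 0.34, did not pass the test (adjusted p = 0.0818 and 0.554).

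For the 6 genes with a miR-125 seed match, the log2 ratios of miR125sp to miR292sp in AGO2 binding lay between 0.04 (Uqcrfs1) and 0.25 (Cox7a2l and Ndufa11), with none past the test (adjusted p = 0.697 to 0.965, edgeR). In the mRNA of miR125sp mice against GFP mice, the 5 of them that were tested had log2 ratios of -0.05 ± 0.10 (Ndufv3) to 0.11 ± 0.05 (Ndufa11), and none passed the test (adjusted p = 0.386 to 0.855).

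At the level of the mRNA in whole hippocampus, the medians of reads per transcript length over genes with 1 listed transcript ordered the complexes as V, IV, III, II and I. The median over genes with 1 listed transcript was 232 RPKM (CPM per kilobase of transcript) for complex V, 215 for complex IV, 192 for complex III, 127 for complex II and just below that for complex I, each as the median over 12 mice. The ranges within a complex overlapped widely. The medians include genes at 0 or with low values. These are Ndufs5 and Ndufa4l2 in complex I and Cox4i2, Cox6a2, Cox7a1, Cox7b2, Cox8b and Cox8c in complex IV. In complex V the lowest was Atp5s at 16.6 RPKM. The order is thus that of all genes with 1 listed transcript and not of the abundant subunits alone. Atp5b, the catalytic beta subunit of the ATP synthase, was highest at 823, followed by Cox4i1 at 755 and Cox8a at 730, and the alpha subunit Atp5a1 stood at 503. In complex I Ndufa4 was highest at 480 and Ndufb9 next at 323, in complex III Uqcrh at 274 and Uqcr10 at 226, and in complex II Sdha at 209 and Sdhb at 148.

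The tissue isoforms of complex IV were clearly separated. Cox4i1 ranged between 665 and 1158 RPKM over the 12 mice, and Cox4i2, the isoform of lung and hypoxic cells, between 1.61 and 3.10. Cox6a1 ranged between 496 and 824 and the muscle isoform Cox6a2 between 3.73 and 10.4. Cox7a2 ranged between 172 and 294 and the muscle isoform Cox7a1 between 2.65 and 7.51, while Cox8a ranged between 645 and 1018 and Cox8b between 0.829 and 4.31. Of the isoforms known from testis, Cox8c was listed at 0 in all 12 mice, Cox6b2 had 1 count in 1 mouse, and Cox7b2 stayed between 0.387 and 1.77. No lowly expressed isoform overlapped its abundant partner in any mouse, with the reserve that Cox6b2 has several listed transcripts. Of the genes for subunit c, Atp5g3 ranged between 367 and 554 and Atp5g2 between 119 and 156, whereas Atp5g1, with 2 listed transcripts, was at most 0.276, although it was among the counted 3′UTRs of the RIP.

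In mice with miR124sp the subunit mRNAs were lower than in the GFP mice of the same experiment. Of 75 tested genes 51 were lower, against 10.7% of all genes, and 0 were higher, against 12.6% (edgeR quasi-likelihood test, adjusted p below 0.05). The median log2 ratio was -0.39 for the subunits and -0.01 for all 12971 genes. By complex, 24 of 32 genes were lower in complex I (median -0.39), 1 of 4 in complex II (-0.19), 5 of 8 in complex III (-0.43), 9 of 14 in complex IV (-0.36) and 12 of 17 in complex V (-0.43). Among genes with 1 listed transcript, the median transcript length was 1232 bases in complex II and 524.5 to 663 in the other complexes. The part of length in the numbers by complex was not tested. Subunits made up 1.23% to 1.29% of all counts in the 3 miR124sp mice, against 1.47% to 1.60% in their GFP mice. In 59 of the 75 genes all 3 miR124sp mice lay below all 3 GFP mice, against 21.1% of all genes. A mark of unstated meaning in the file headers was carried by 8 of the 12 libraries. With this mark as a covariate 31 subunits were lower and 0 higher, beside 623 lower and 830 higher of all 12971 genes.

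The largest differences were seen for small subunits of the ATP synthase. Atp5md, also called Usmg5, had 52.5, 49.8 and 52.9 CPM in miR124sp mice, against 82.1, 106 and 78.3 in GFP mice (log2 ratio -0.77 ± 0.11, adjusted p = 0.00404, edgeR). Atp5e, the epsilon subunit, had 88.3, 79.6 and 88.0 in miR124sp mice, against 141, 152 and 120 in GFP mice (-0.68 ± 0.09, adjusted p = 0.00380). The groups did not overlap for either gene. Atp5k, subunit e, and Atp5l, subunit g, which hold ATP synthase dimers together, fell by 0.67 and 0.62 on the log2 scale, and the small subunit Atp5mpl by 0.65.

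In complexes I and IV, Ndufa4 had 229, 222 and 238 in miR124sp mice, against 358, 384 and 324 in GFP mice (-0.62 ± 0.08, adjusted p = 0.00368, edgeR). Cox7b, a small membrane subunit, had 142, 141 and 151 in miR124sp mice, against 218, 244 and 199 in GFP mice (-0.60 ± 0.08, adjusted p = 0.00394), and the accessory subunit Ndufb6 fell by 0.57. The miR124sp mice were close to each other, and the GFP mice spread more, with replicate 20 highest for most of these genes. Cox4i1 had 523, 495 and 512 in miR124sp mice, against 743, 786 and 647 in GFP mice (-0.50 ± 0.09, adjusted p = 0.00674). Cox6c (-0.46), Cox7a2 (-0.57), Ndufb8 (-0.44) and Ndufs4 (-0.40) were lower as well.

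Several large catalytic subunits did not pass the test. Sdha had 608, 611 and 567 CPM in miR124sp mice, against 513, 531 and 538 in GFP mice (0.19 ± 0.08, adjusted p = 0.101, edgeR). Atp5b had 1566, 1586 and 1552 in miR124sp mice, against 1577, 1397 and 1595 in GFP mice (0.05 ± 0.09, adjusted p = 0.696). The log2 ratio was 0.10 ± 0.09 for Atp5a1 and 0.10 ± 0.07 for Uqcrc1, a core protein of complex III. Ndufv1, the subunit that takes electrons from NADH, had 212, 213 and 209 in miR124sp mice, against at most 195 in the GFP mice, and the groups did not overlap (0.17 ± 0.06, adjusted p = 0.0882). Within complex II Sdhb (-0.19 ± 0.08) and Sdhc (-0.19 ± 0.07) did not pass the test, and Sdhd did (-0.29 ± 0.08, adjusted p = 0.0295).

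The genes that were lower have short transcripts, and the difference followed transcript length over the whole transcriptome. Under 600 bases the median log2 ratio was -0.48 for 32 subunit genes and -0.49 for all 270 genes, from 600 to under 1000 bases -0.32 for 22 and -0.32 for all 752, from 1000 to under 2000 bases -0.19 for 18 and -0.13 for all 3057, and at 2000 bases or more 0.10 for 3 and 0.07 for all 8892. The subunit medians thus lay within 0.1 of the medians of all genes of their length. Calls of lower genes were more frequent among subunits, with 93.8% against 51.5% under 600 bases and 68.2% against 37.1% from 600 to under 1000 bases. Subunits also had more counts, with a median of 25298.5 against 559.5 over all symbols with 1 listed transcript. With medians alike in these classes, the share of calls was not read as a larger difference, and the part of read depth was not tested. Over the 75 subunits the log2 ratio correlated with log length at Pearson r = 0.59 and Spearman rho = 0.66, as a description.

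**Figure D3:**
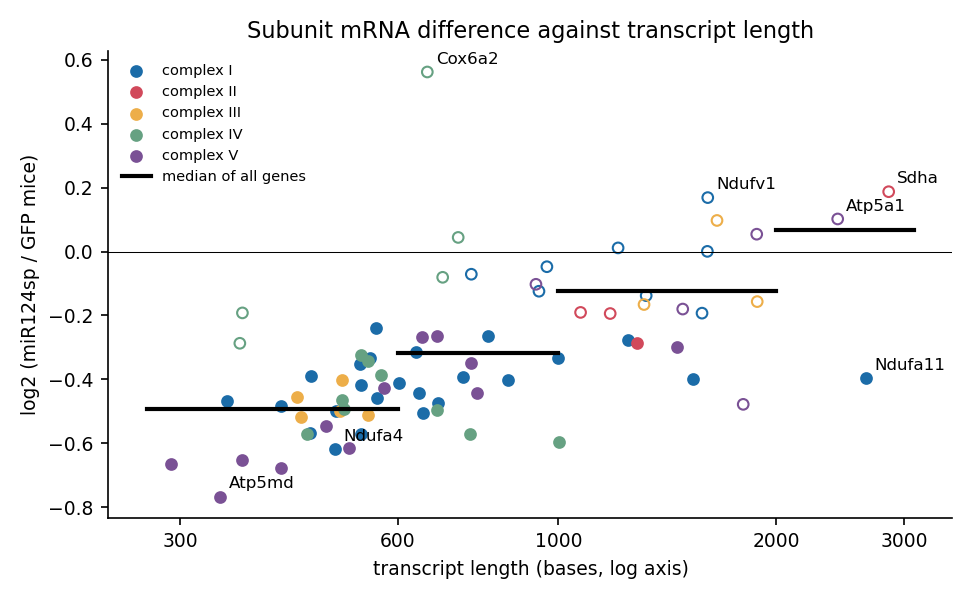
Each point is one subunit gene, with its transcript length in bases (log axis) and its log2 ratio of miR124sp to GFP mice, coloured by complex. Filled points passed the edgeR test, and black lines are medians of all genes in each length class, at -0.49, -0.32, -0.13 and 0.07. The points run along the black lines, with Cox6a2 (0.56, not past the test) above and Ndufa11 (-0.40) below.

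With offsets that follow transcript length in each library, 4 subunits were lower, against 5.57% of all genes, and 4 were higher, against 9.09%, and the subunit median was 0.00. The 4 lower genes, all also lower without offsets, were Ndufa11 (-0.39, adjusted p = 0.0130, edgeR), Cox7b (-0.35, adjusted p = 0.0211), Ndufs4 (-0.28, adjusted p = 0.0170) and Cox7a2 (-0.23, adjusted p = 0.0424). The higher ones were Cox6a2 (0.96), Cox5a (0.29), Ndufv1 (0.28) and Ndufs7 (0.27), none of which was called without offsets. This fit was chosen after the dependence on length had been seen.

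The GFP mice of the other experiment gave a further reference, with the reserve that they belong to another set of animals and libraries. Against them 0 of 74 tested subunits were lower in miR124sp mice, against 1.21% of all genes, and 0 were higher, against 0.917%, with a subunit median of 0.06 (edgeR). At an unadjusted p below 0.05, 13 subunits were higher and 1 lower, beside 1321 higher and 1326 lower of all 12436 genes. Atp5md, for example, was at 52.5, 49.8 and 52.9 in miR124sp mice, against 46.8, 48.4 and 57.2 in those GFP mice, and the groups overlapped. Between the GFP mice themselves, 59 of 75 subunits were higher in the miR-124 experiment than in the miR-125 experiment, against 14.6% of all genes, and 0 were lower, against 16.1%, with a subunit median of 0.45. The GFP mice of the miR-124 experiment thus stood apart from the other 9 mice in subunit mRNA: subunits made up 1.47% to 1.60% of counts there, against 1.24% to 1.28% in miR125sp mice, 1.16% to 1.22% in the GFP mice of that experiment and 1.23% to 1.29% in miR124sp mice. The miR124sp effect and the difference between the sets of GFP mice share those 3 mice.

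**Figure D4:**
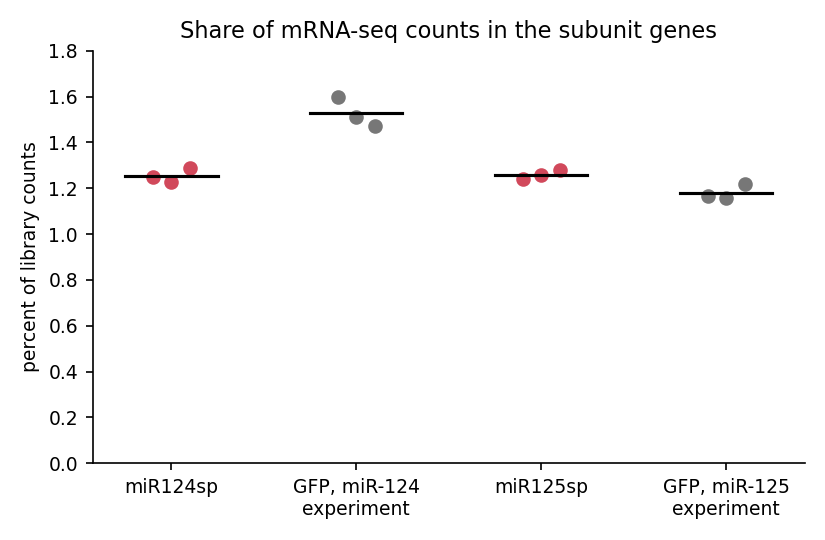
Each point is one mouse, with the percent of its mRNA-seq counts that fell in the 86 subunit genes, and black lines are means of 3 mice. The 3 GFP mice of the miR-124 experiment lie at 1.47% or above, and the other 9 mice at 1.29% or below.

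Over the length classes the same 3 GFP mice stood out for all genes. The median log2 difference from the mean of the 12 mice was 0.26 to 0.40 in them for all 286 genes under 600 bases, and -0.03 to -0.05 for the 9071 genes of 2000 bases or more, while the other 9 mice lay between -0.23 and -0.01 and between -0.01 and 0.03. For the subunits the values were 0.23 to 0.34 in these 3 mice and -0.17 to -0.01 in the other 9. What sets these libraries apart was not tested.

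In mice with miR125sp 0 of 75 subunits were higher than in their GFP mice, against 0.0554% of all genes, and 0 were lower, against 0.150% (edgeR). The median log2 ratio was 0.09, 69 of the 75 values were above 0, beside 6113 of all 12638 genes, and 32 were higher and 0 lower at an unadjusted p below 0.05, beside 808 higher and 851 lower of all. DESeq2 called 2 higher, beside 72 higher and 72 lower of all 12638 genes. By complex the medians lay between 0.03 for complex II and 0.15 for complex IV. Astrocyte, microglial and neuronal marker sums, given above, also differed between these groups without overlap, and their part was not tested. Cox4i1 had 514, 492 and 532 CPM in miR125sp mice, against 459, 451 and 460 in GFP mice, which is higher in 3 of 3 mice (0.16 ± 0.04, adjusted p = 0.157). Atp5md had 65.7, 63.7 and 67.2 in miR125sp mice, against 46.8, 48.4 and 57.2 in GFP mice (0.34 ± 0.07, adjusted p = 0.114).

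**Figure D5:**
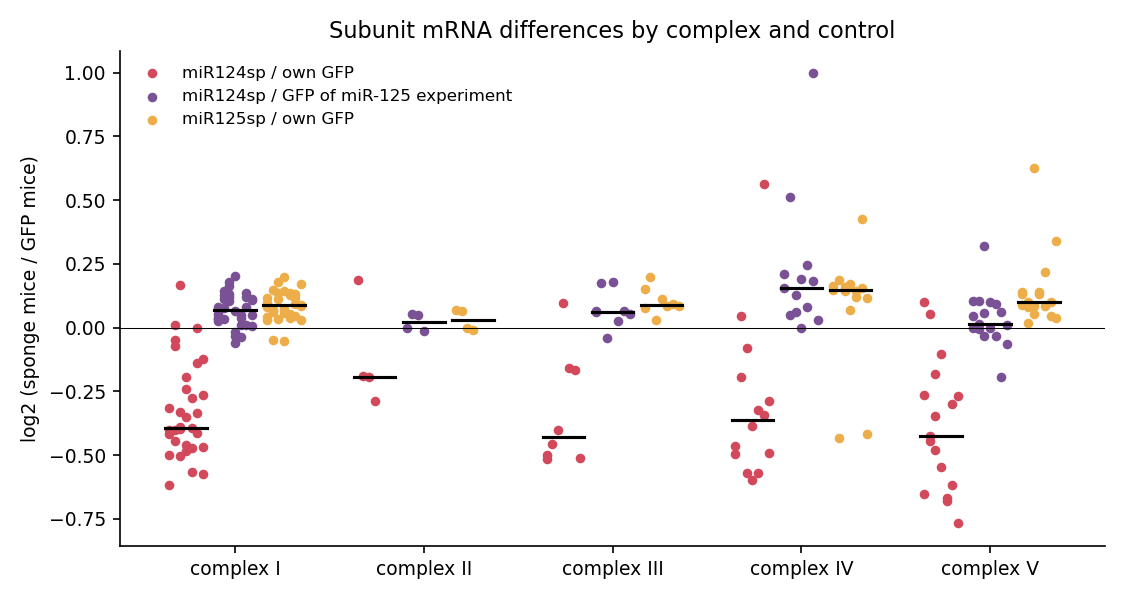
Each point is one subunit gene and the vertical axis its log2 ratio of sponge to GFP mice, by complex, for miR124sp against its own GFP mice, miR124sp against the GFP mice of the miR-125 experiment, and miR125sp against its own GFP mice. Black lines are medians per complex. The first set has medians between -0.43 and -0.19, whereas over all subunits the medians of the other sets are 0.06 and 0.09.

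The difference between the sponge effects was tested as an interaction over all 12 mice. The miR124sp effect was lower than the miR125sp effect in 52 of 75 subunits, against 7.06% of all genes, and higher in 0, against 7.42% (edgeR). The median difference was -0.48, and the numbers were 24 of 32 in complex I, 0 of 4 in complex II, 5 of 8 in complex III, 10 of 14 in complex IV and 13 of 17 in complex V. Complex II has the longest median transcript, as given above. It was largest for Atp5md (-1.13 ± 0.15, adjusted p = 0.000995) and Atp5c1 (-1.12 ± 0.27, adjusted p = 0.0147), the gamma subunit, which had only 1.46 to 2.96 CPM and 2 listed transcripts. Ndufa4 differed by -0.75, Cox7a2 by -0.73 and Ndufb4, an accessory subunit, by -0.71. With length offsets 5 were lower, namely Atp5c1 (-1.02), Ndufa11 (-0.52), Atp5md (-0.42), Cox7b (-0.39) and Cox7a2 (-0.33). Of all 13268 genes 339 were then lower and 357 higher.

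The other lists of mitochondrial genes were mixed in the miR124sp mice. Of 37 tested assembly factors 16 were lower and 2 higher, beside 10.7% lower and 12.6% higher among all genes, with a median of -0.24. These lists were not set beside genes of their own transcript length. Of 14 genes for core subunits and electron carriers outside the symbol rule 4 were lower and 0 higher. The lower ones were Atpif1, the inhibitor of the ATP synthase (-0.42), Etfa, a carrier of electrons from fatty acid oxidation (-0.37), Coq2 (-0.34) and Cycs (-0.30). In the citric acid cycle list 1 of 16 was lower, with a median of 0.00, and among 14 glycolytic genes 2 were higher and 1 lower, with a median of 0.11. Of 14 regulators of mitochondrial gene expression 1 was lower, with a median of 0.04, and of 14 carriers and porins 3 were lower, with a median of -0.02. In the miR125sp mice 0 genes of these 6 lists passed the test in either direction.

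Subunit genes are known to share promoter elements for NRF-1, the GA-binding protein of the ETS family and YY1. The promoters were read for letters of these elements, on both strands, in the window of 250 bases before to 50 after the start (RefSeq, GRCm38.p6). The palindrome CGCATGCG at the core of the NRF-1 element occurred in 9 of 70 subunit promoters (12.9%), against 2.07% of 27025 genes. CCGGAAG of the ETS family occurred in 17 (24.3%), against 9.93%, and AAGATGGC of YY1 in 10 (14.3%), against 3.19%. A window with the NRF-1 match, in capitals, is shown for each complex that had any: Ndufa11 on chr17:56717692-56717721 (plus strand) for complex I, Uqcrc1 on chr9:108936668-108936697 (plus strand) for complex III, Cox6a1 on chr5:115349101-115349130 (minus strand) for complex IV and Atp5k on chr5:108434430-108434459 (minus strand) for complex V.
Ndufa11: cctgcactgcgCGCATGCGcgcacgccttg
Uqcrc1: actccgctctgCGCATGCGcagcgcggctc
Cox6a1: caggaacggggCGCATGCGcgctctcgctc
Atp5k: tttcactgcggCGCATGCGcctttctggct
In miR124sp mice against their GFP mice these 4 genes had log2 ratios of -0.40 (Ndufa11), 0.10 (Uqcrc1, not past the test), -0.32 (Cox6a1) and -0.67 (Atp5k). The other 5 genes with the match were lower, at -0.27 (Atp5g2), -0.35 (Atp5j), -0.62 (Atp5l), -0.39 (Ndufa8) and -0.46 (Uqcr11), so 8 of the 9 passed the test, beside 51 of all 75 subunits. With length offsets only Ndufa11 of the 9 passed the test, and Atp5g2 (0.12), Cox6a1 (0.13) and Uqcr11 (0.057) turned positive. Against the GFP mice of the other experiment 0 of 74 tested subunits were lower. A part of the promoter match in these differences was not tested.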

How the data were processed

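RIP and mRNA libraries were prepared with polyA selection, and the 50-base reads were mapped to mm9 per the study's methods, whereas the submitters' processing notes list mm10, STAR and edgeR. No source used here names the counting program. The authors deposited raw read counts, per 3′UTR for the RIP (Ensembl transcripts) and per RefSeq transcript for the mRNA, with 1 file per library. Transcript counts were summed per symbol. Counts of RIP comparisons with sham were scaled to the mean of Gapdh and the 50 genes on each side of it in the list of ratios, all others by TMM. RIP normalised read counts and enrichments (ratio to the mean of the sham libraries) use the scaling to Gapdh, and mRNA CPM use 1 TMM scaling over 12 mice. Tests were edgeR 4.0.16 quasi-likelihood tests in R 4.3.3, with the log2 ratio divided by the root of F as its standard error and Benjamini-Hochberg adjustment over all features, at a threshold of 0.05, after a minimum of 10 counts in every RIP library or filterByExpr for mRNA. The 8 RIP libraries were fitted together, each mRNA experiment alone and the interaction over 12 mice. DESeq2 1.42.0, other scalings, filters and samples served as alternatives, and the scripts were tested on simulated data. Genes named are at most 8 called per direction and comparison, the highest and lowest in AGO2 enrichment and the 2 most abundant per complex, 16 set subunits and the isoform families, plus genes that a short list or motif match singles out, which were chosen after their values were seen. Length classes of transcripts, length offsets and the other GFP mice were added after seeing the data. A marker list that holds a withheld item is not reported here. The members and lists were chosen with earlier results of these data known. Sequences were read from NCBIM37 with GENCODE annotation where the 3′UTR length matched (82.7% of 3′UTRs), or from RefSeq tables. Many subunits have processed pseudogenes, and no source used here tells how reads from near-identical copies were assigned. RIP replicates are separate pools and mRNA replicates separate mice, and p-values over 2 libraries or 3 mice rest on a spread shared across features.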

Additional observations from a re-analysis of the deposited data

Results flagged for a closer look

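Of the 75 subunit genes tested in the mRNA-seq, 52 differed between the effect of miR124sp and the effect of miR125sp in the interaction test (edgeR, adjusted p below 0.05), all of them with the lower value for miR124sp, against 7.06% of all genes. The 3 GFP mice of the miR-124 experiment, which are the reference of one effect only, had the highest subunit share of counts among the 12 mice, and with length offsets 5 genes differed.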

How the results depend on the processing

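Counts of subunits past the threshold are given as higher and lower calls. For AGO2 enrichment in miR292sp over sham (18 higher), TMM scaling and DESeq2 each gave 23 (2 higher, 21 lower) and 3′UTR length offsets 44 higher, and leaving out each library gave 12 to 18, with the scaling behind the turn in direction. The subunit median was -0.83 with TMM scaling and -0.81 with DESeq2. Among named genes called in either fit, the ratios that turned negative under TMM and DESeq2 included those of Atp5b (-0.94, -0.92), Atp5g3 (-0.99, -0.96), Cox4i1 (-1.35, -1.32), Cox6b1 (-1.06, -1.04), Cox7a2l (-0.56, -0.53), Cox7b (-0.83, -0.80), Ndufa11 (-0.12, -0.097), Sdhb (-0.42, -0.39) and Uqcr10 (-1.35, -1.32). Uqcrh turned to 0.67 with length offsets. For miR124sp over miR292sp (1), scaling to Gapdh and its neighbours gave 10 lower, DESeq2 6 (5 higher, 1 lower), filterByExpr 0, no filter 2 (1 higher, 1 lower), only the 4 libraries compared 3 (2 higher, 1 lower), and leaving out each library 0 to 3. For miR125sp over miR292sp (0) the scaling to Gapdh gave 6 (1 higher, 5 lower), and DESeq2, no filter and only the 4 libraries compared 1 higher each, with 0 in all 4 fits without a library. For miR124sp over sham (1 lower) filterByExpr and only the 4 libraries compared gave 0, no filter 1 higher, and leaving out each library 0 to 2. For miR125sp over sham (5 higher) TMM gave 1 lower, DESeq2 3 lower, and leaving out each library 1 to 6.

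For the mRNA of miR124sp mice (51 lower), the header mark as a covariate gave 31, transcript length offsets 8 (4 higher, 4 lower), the GFP mice of the other experiment 0, and leaving out each mouse 39 to 52. With length offsets the ratio turned positive for 19 of the 51, and among named genes called in either fit for Atp5g2 (0.12), Atp5g3 (0.11), Cox5a (0.29), Cox6a1 (0.13), Cox6c (0.0089), Cox8a (0.10), Ndufs7 (0.27) and Uqcr11 (0.057). Against the other GFP mice it turned positive for 39 of the 51, among them Atp5e (0.091), Atp5g3 (0.10), Atp5j (0.057), Atp5md (0.0096), Cox4i1 (0.16), Cox6a1 (0.25), Cox6b1 (0.030), Cox6c (0.21), Cox7a2 (0.061), Cox8a (0.18), Ndufa4 (0.052), Ndufa8 (0.039), Ndufa11 (0.10), Ndufb6 (0.0047), Ndufb8 (0.11), Ndufb9 (0.16), Ndufs4 (0.027), Uqcr10 (0.062), Uqcr11 (0.18) and Uqcrh (0.054). For miR125sp mice (0) DESeq2 and no filter gave 2 higher each, and leaving out each mouse 0. For the difference of the effects (52 lower) the header mark gave 33, length offsets 5, and leaving out each mouse 46 to 58. The offsets and the other GFP mice were chosen after seeing the data, and where no construction is named the cause was not tested. No paired analysis was possible because the replicate numbers name different pools and mice, and the groups compared share fewer than 2 of them.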
